A study of Mus musculus with 6 samples.

Results

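Cathepsins are proteases found mainly in lysosomes, and cystatin C is a secreted inhibitor of the cysteine type. The 10 genes described here, matched by symbol out of 15483 genes in the tables, were Ctsa, Ctsb, Ctsc, Ctsd, Ctse, Ctsh, Ctsl, Ctss and Ctsz, which encode 9 cathepsins, and Cst3, which encodes cystatin C. All 10 were found and all 10 passed the filter on low values. They were measured by RNA-seq in 6 libraries of mouse bone marrow cells labelled regulatory T cells (Tregs), gated on CD3 and CD4, without NK1.1 and with Foxp3. Of these, 3 libraries came from control mice and 3 from irradiated mice, taken 3 months later, and both groups were wild type. The radiation dose, the age of the mice and the number of animals behind a library were not found in the labels, so the spread behind each p-value is that between libraries and may be technical.

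Cathepsins are made as inactive precursors, carried to the lysosome largely by mannose 6-phosphate receptors, and activated by cleavage at acidic pH. They fall into 3 catalytic classes. Ctsb, Ctsc, Ctsh, Ctsl, Ctss and Ctsz encode papain-like cysteine proteases, Ctsd and Ctse encode aspartic proteases, and Ctsa encodes a serine carboxypeptidase. Macrophages, dendritic cells and B cells use them to degrade engulfed protein and to cut antigens and the invariant chain for MHC class II. Cystatin C binds papain-like cysteine cathepsins and does not inhibit the aspartic or serine types.

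The values are FPKM, which scale a gene's fragments by transcript length and by the library's total, so levels can be compared between genes per length. The absolute depth is unknown, and the depth recovered from low values ran from 81.7% to 103% of that of control replicate 1, with the 3 irradiated libraries the shallowest. Transcripts of other marrow cells were abundant in every library: the neutrophil gene S100a8 had 25283 ± 1249 FPKM (SD, n = 3) in the control group and 39026 ± 427 FPKM in the irradiated group, against 22.6 ± 1.93 and 12.6 ± 0.795 FPKM for Foxp3, the defining Treg factor. In such bulk libraries fewer cells of a type, less RNA per cell and more RNA from other cells cannot be told apart. FPKM are relative to the library's total, so each fall or rise below is one of relative level.

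Promoters are shown for Ctsd, Ctsa and Ctss, which were lower after irradiation and carry, in capitals, letters that match known binding motifs. Ctsc was lower too and had a match, Ctsl had a match but did not pass the test given below, and neither is shown. Cst3 and Ctsz were lower without a match to any of the motifs, and are not shown. The window at the first Ctsa start had no match and is not shown either. Each run covers 250 bases before to 50 after a RefSeq start on GRCm38.p6, in the direction of the gene.
Ctsd, chr7:142387778-142388077, minus strand: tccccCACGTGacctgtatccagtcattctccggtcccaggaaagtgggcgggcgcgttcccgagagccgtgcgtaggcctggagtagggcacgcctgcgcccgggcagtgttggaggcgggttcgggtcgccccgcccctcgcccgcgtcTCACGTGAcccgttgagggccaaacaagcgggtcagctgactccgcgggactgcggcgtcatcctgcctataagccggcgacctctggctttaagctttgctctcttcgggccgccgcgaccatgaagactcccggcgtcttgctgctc
Ctsa, second start, chr2:164833523-164833822, plus strand: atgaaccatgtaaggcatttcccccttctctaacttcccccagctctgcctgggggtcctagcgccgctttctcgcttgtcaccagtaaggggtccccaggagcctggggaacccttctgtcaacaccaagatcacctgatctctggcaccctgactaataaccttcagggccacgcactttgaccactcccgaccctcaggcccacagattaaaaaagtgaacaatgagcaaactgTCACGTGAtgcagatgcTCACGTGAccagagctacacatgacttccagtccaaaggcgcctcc
Ctss, chr3:95526536-95526835, plus strand: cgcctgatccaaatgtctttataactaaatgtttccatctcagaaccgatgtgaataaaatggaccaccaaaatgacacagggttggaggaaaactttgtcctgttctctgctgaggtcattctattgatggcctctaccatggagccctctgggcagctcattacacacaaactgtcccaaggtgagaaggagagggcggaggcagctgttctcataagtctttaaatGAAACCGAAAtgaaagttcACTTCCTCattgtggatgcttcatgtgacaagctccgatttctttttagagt
The motifs searched on both strands were CACGTG, the core of the E-box, TCACGTGA, the core of the element bound by the lysosomal regulator TFEB and its relatives, which contains the first motif, GAGGAAGT, a motif of the myeloid and B cell factor PU.1, and a pair of GAAA runs with any 2 bases between them, the core of the interferon-stimulated response element. RefSeq windows were given for 7 of the 10 genes (8 windows, since Ctsa has a second start within the gene), and there was none for Ctsb, Ctse and Ctsh. TCACGTGA was in 2 of the 8 windows, once in Ctsd with its first base 99 bases before the start, and at 2 places in the second Ctsa window, 13 bases before and 4 bases after it. It was in 0.974% of all 32851 promoter windows. CACGTG was in 3 of the 8 windows, the second of Ctsa, that of Ctsd and also that of Ctsl, against 7.15% of all windows. The Ctss window held the interferon element with its first base 21 bases before the start (1 of 8 windows, 3.44% of all) and GAGGAAGT, read on the other strand, 2 bases before it (2 of 8 windows with Ctsc, 3.20% of all). These matches describe letters in a window and were not tested for binding.

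The levels of the 10 genes spanned a wide range. In control libraries Cst3 led at 619.8 ± 31.8 FPKM (SD, n = 3), followed by Ctsb (549.5 ± 23.4), Ctsd (521 ± 30.7), Ctss (282 ± 3.54), Ctsz (239 ± 21.0), Ctsh (146 ± 2.48), Ctsa (71.1 ± 0.260), Ctsc (30.4 ± 0.812), Ctse (25.5 ± 1.18) and Ctsl (8.36 ± 0.75). Of neighbours in that order, the library values overlapped only for Ctsb and Ctsd. In irradiated libraries the order was Cst3, Ctsd, Ctsb, Ctsz, Ctss, Ctsh, Ctsa, Ctse, Ctsc and Ctsl, and there the values of Ctsz and Ctss and those of Ctse and Ctsc overlapped. Within each control library Ctsb was slightly above Ctsd (ratios 1.07, 1.03 and 1.07), and within each irradiated library it was below Ctsd.

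**Figure D1:**
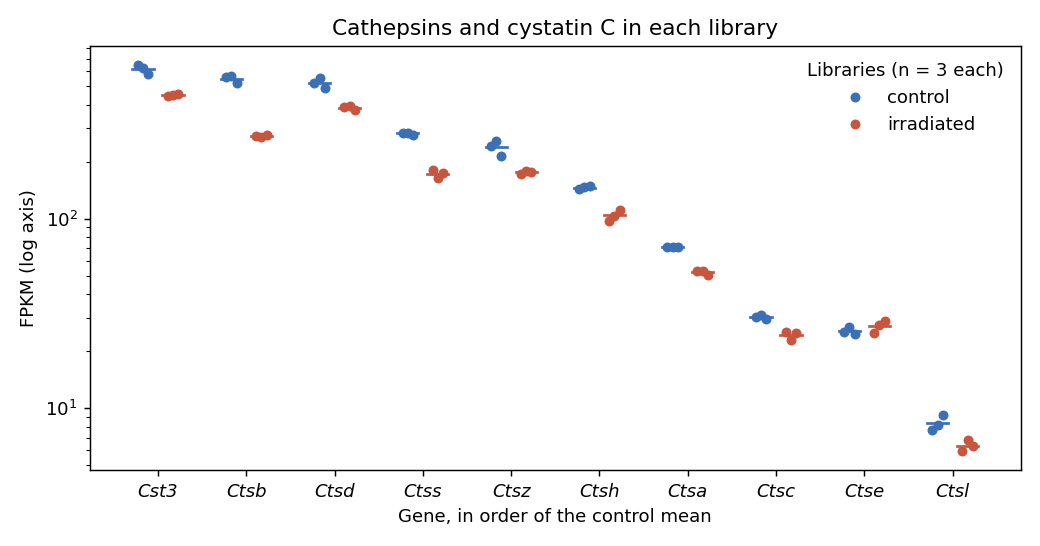
FPKM on a log axis for the 10 genes in each of the 6 libraries, with points for libraries and a short line for the mean of each group (n = 3). The irradiated points lie below the control points for every gene except Ctse, where they overlap, and the gap is widest for Ctsb, from a mean of 549.5 to 274 FPKM.

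After irradiation 8 of the 10 genes were lower, 0 were higher and 2, Ctse and Ctsl, did not pass the test (limma on log2(FPKM + 1), Benjamini-Hochberg adjusted over all tested genes, threshold 0.05). Over all 10666 tested genes 10.3% were lower and 6.29% higher by the same test. Without control replicate 2, the 1100 lower and 671 higher genes became 722 and 414. In 9 of the 10 genes every irradiated library was below every control library, which held for 20.1% of all tested genes. The median log2 change of the 10 genes was -0.44, against -0.02 for all tested genes. These genes were chosen with earlier results of these data known, so the counts describe them and do not show that they stand apart.

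Ctsb and Ctss, both cysteine cathepsins, had the largest changes. From here on, log2 changes are on the log2(FPKM + 1) scale and given ± SE, and FPKM means are given ± SD (n = 3). Ctsb, which cuts proteins internally and also trims dipeptides from their ends (chromosome 14, 63122462 to 63145923 on GRCm38), stood at 559, 567 and 523 FPKM in control replicates 1, 2 and 3 and at 274, 269.6 and 278 FPKM in irradiated replicates 1, 2 and 3. The irradiated values were close to each other and far below the lowest control value, at 49.9% of the control mean. Ctsb fell by 1.0 on the log2 scale (SE 0.05, limma adjusted p = 1.34e-07), and 1.59% of all tested genes had a lower log2 change.

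Ctss, the protease that removes the invariant chain from MHC class II in antigen-presenting cells (chromosome 3, 95526786 to 95556403), stood at 284, 285 and 278 FPKM in control and 180.2, 164 and 175 FPKM in irradiated libraries. The groups did not overlap, and the irradiated mean was 61.3% of the control mean. Ctss fell by 0.70 (SE 0.05, limma adjusted p = 2.96e-06). In the same libraries Cd74, the invariant chain gene itself, fell from 301 ± 11.8 to 149 ± 5.53 FPKM (log2 change -1.01 ± 0.05 SE).

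The exopeptidase genes of the cysteine class had smaller log2 changes than Ctsb and Ctss, a difference between genes that was not tested. Ctsh, an aminopeptidase, stood at 144, 146 and 149 FPKM in control and 97.6, 104 and 111 FPKM in irradiated libraries, and fell by 0.49 (SE 0.06, limma adjusted p = 0.000133). Ctsz, a carboxypeptidase, stood at 243, 257 and 216 FPKM in control and 173, 178 and 176 FPKM in irradiated libraries, and fell by 0.44 (SE 0.06, limma adjusted p = 0.000609). For both genes the lowest control library was above the highest irradiated library, and the control spread of Ctsz was the wider of its groups.

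Ctsc, a dipeptidyl peptidase that activates the granule serine proteases of neutrophils, mast cells and cytotoxic lymphocytes, stood at 30.4, 31.2 and 29.6 FPKM in control and 25.3, 23.1 and 24.9 FPKM in irradiated libraries. The groups did not overlap, and Ctsc fell by 0.31 (SE 0.07, limma adjusted p = 0.0132). Without control replicate 2 the adjusted p was 0.0613. Ctsg, which encodes cathepsin G, a neutrophil granule protease that Ctsc is known to activate, rose from 538 ± 28.5 to 824 ± 37.8 FPKM (log2 change 0.61 ± 0.05).

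Ctsl, an endopeptidase with the lowest level of the 10 genes, stood at 7.70, 8.19 and 9.18 FPKM in control and 5.95, 6.81 and 6.29 FPKM in irradiated libraries. The values did not overlap, but its log2 change of -0.35 ± 0.11 did not pass (limma adjusted p = 0.0596, 95% interval -0.60 to -0.10 before adjustment).

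The aspartic pair had unlike values, and the difference between the genes was not tested. Ctsd, the main aspartic endopeptidase of lysosomes (chromosome 7, 142375911 to 142388038), stood at 519.8, 552 and 491 FPKM in control and 389, 396 and 374 FPKM in irradiated libraries. All irradiated values were below all control values, and Ctsd fell by 0.43 (SE 0.05, limma adjusted p = 0.000156). Ctse, an endosomal aspartic protease found in red cell precursors, gastric cells and some antigen-presenting cells (chromosome 1, 131638306 to 131675505), stood at 25.2, 26.8 and 24.5 FPKM in control and 24.9, 27.6 and 29.0 FPKM in irradiated libraries. Its groups overlapped, and its log2 change of 0.09 ± 0.08 did not pass (limma adjusted p = 0.526) and had a 95% interval from -0.09 to 0.26. Of 12 tested erythroid marker genes, 6 were lower and 0 higher (median log2 change -0.46), and their summed level was 1106 to 1346 FPKM in control and 747 to 778 FPKM in irradiated libraries.

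Ctsa, the serine carboxypeptidase that also shields lysosomal neuraminidase and beta-galactosidase (chromosome 2, 164832873 to 164841032), was the steadiest member in control libraries, at 71.4, 70.9 and 70.9 FPKM. It stood at 53.0, 53.0 and 50.4 FPKM in irradiated libraries, below every control value, and fell by 0.44 (SE 0.06, limma adjusted p = 0.000228). Its gene body overlaps those of Neurl2 and Pltp on the other strand, as Ctsb overlaps Fdft1 and Ctsz overlaps Nelfcd. Ctsc overlaps Gm26522 and Ctsl overlaps Gm47123 in the same way, and neither of these is among the listed genes. The library kit keeps strand, but whether the counting used it is not given in the sources used here, so reads in those overlaps could be shared. Ctsd overlaps Gm49369, Ctsl the pseudogene Gm49230 and Ctss the pseudogene Hmgb1-ps5, each on the same strand and not listed in the tables, and stranded counting would not separate these.

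Cst3, the inhibitor (chromosome 2, 148871722 to 148875692), stood at 647, 628 and 585 FPKM in control and 444, 449.6 and 454 FPKM in irradiated libraries. The groups did not overlap, and Cst3 fell by 0.46 (SE 0.05, limma adjusted p = 4.79e-05). Cst3 relative to Ctsd was 1.19 ± 0.0532 in control and 1.16 ± 0.0439 in irradiated libraries, with overlapping values (two-sided exact permutation p = 0.6). Relative to the summed FPKM of the 6 cysteine cathepsins that cystatin C can bind, Cst3 stood at 0.510, 0.485 and 0.486 in control and 0.587, 0.603 and 0.589 in irradiated libraries. That ratio of transcripts was higher in every irradiated library, by 0.0996 (two-sided exact permutation p = 0.1, the smallest that 3 against 3 allows). Among the 6, Ctsb (log2 change -1.0), Ctss (-0.70) and, by a small margin, Ctsh (-0.49) fell more than Cst3 (-0.46). Ctsz (-0.44), Ctsl (-0.35) and Ctsc (-0.31) had smaller log2 changes than Cst3. These differences between genes were not tested. The ratio was not computed without Ctsb and Ctss.

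**Figure D2:**
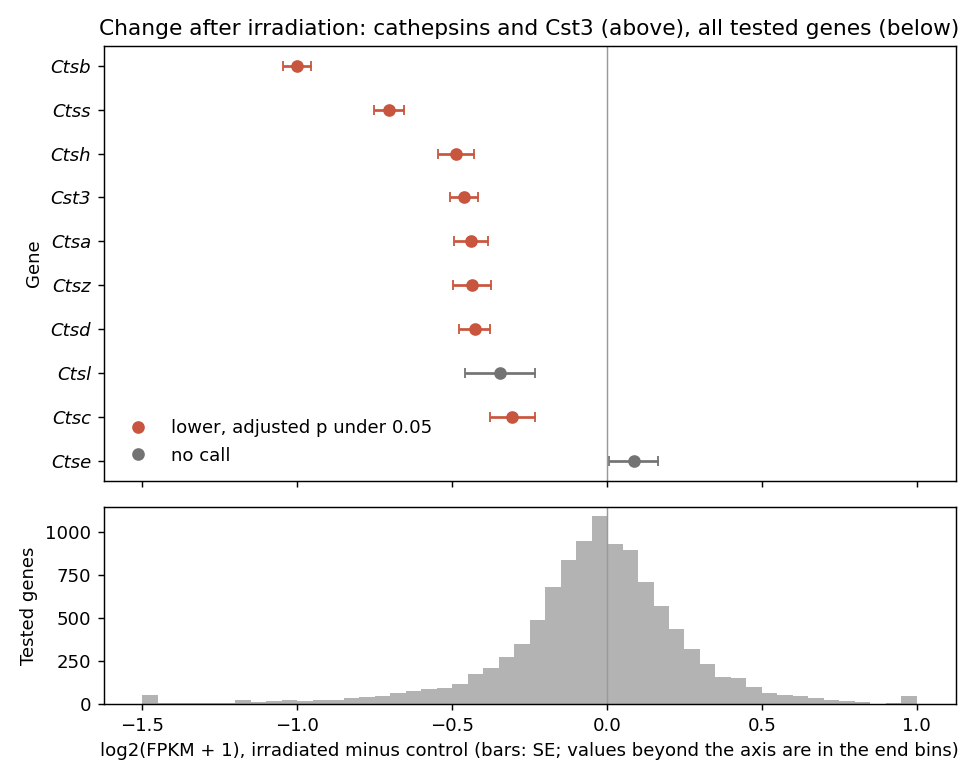
Above, the log2(FPKM + 1) change (irradiated minus control, bars show the SE) of the 10 genes, in red where lower at an adjusted p under 0.05 and in grey without a call. Below, the same change for all 10666 tested genes: Ctsb at -1.0 and Ctss at -0.70 lie in the left tail, most of the others near -0.44 and Ctse at 0.09.

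The 9 cathepsins together summed to 1883, 1944 and 1790.3 FPKM in control and 1223, 1222 and 1225 FPKM in irradiated libraries. The irradiated sums differed by a few FPKM only and were all below the control sums, a difference in means of -649 FPKM (two-sided exact permutation p = 0.1, the smallest possible). As a share of all FPKM in the library the family took 0.404% ± 0.0100 (SD, n = 3) in the control group and 0.253% ± 0.000974 in the irradiated group. Of the difference in means, Ctsb made up 42.4%, Ctsd 20.7%, Ctss 16.8% and Ctsz 9.69%. Without Ctsb the sum was 1323 ± 55.0 in control and 949 ± 3.07 FPKM in irradiated libraries.

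Within the family, the share of Ctsb had the largest difference between the groups. It was 29.7%, 29.2% and 29.2% of the summed cathepsin FPKM in control and 22.4%, 22.1% and 22.7% in irradiated libraries, with replicates that differed by less than 1 percentage point. The share of Ctsd was 27.8% ± 0.518 in control and 31.6% ± 0.946 in irradiated libraries, and that of Ctsz 12.7% ± 0.607 and 14.4% ± 0.236. Ctse, whose own level overlapped between the groups, took 1.36% ± 0.0225 in control and 2.22% ± 0.169 in irradiated libraries. Ctsa (3.80% and 4.26%) and Ctsc (1.62% and 2.0%) also had shares that did not overlap, higher in irradiated libraries. The shares of Ctss (15.1% and 14.1%), Ctsh (7.82% and 8.51%) and Ctsl (0.448% and 0.519%) overlapped. For the 6 shares that did not overlap the two-sided exact permutation p was 0.1, the smallest possible, and 0.15 after Benjamini-Hochberg adjustment over 9 shares, so no share passed. Shares sum to 100%, so a lower share of Ctsb goes with higher shares elsewhere: without Ctsb in the sum, the difference in share was -3.13 percentage points for Ctss and 1.38 for Ctsd.

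By catalytic class, the cysteine cathepsins made up 67.0% ± 0.392 of the family in control and 61.9% ± 0.992 in irradiated libraries, and the aspartic pair 29.2% ± 0.530 and 33.8% ± 0.877. Mean FPKM was lower for each cysteine gene, but mean shares were lower for Ctsb and Ctss and higher for Ctsc, Ctsh, Ctsl and Ctsz. The shares of Ctss, Ctsh and Ctsl overlapped between the groups. Without Ctsb in the sum, the difference in the share of Ctsh was -0.0989 percentage points. Ctsc (-0.31) and Ctsl (-0.35) also had smaller log2 changes than Ctsd (-0.43) and Ctsa (-0.44). The ratio of Ctsb to Ctsd was 1.07, 1.03 and 1.07 in control and 0.705, 0.680 and 0.743 in irradiated libraries, without overlap (two-sided exact permutation p = 0.1).

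**Figure D3:**
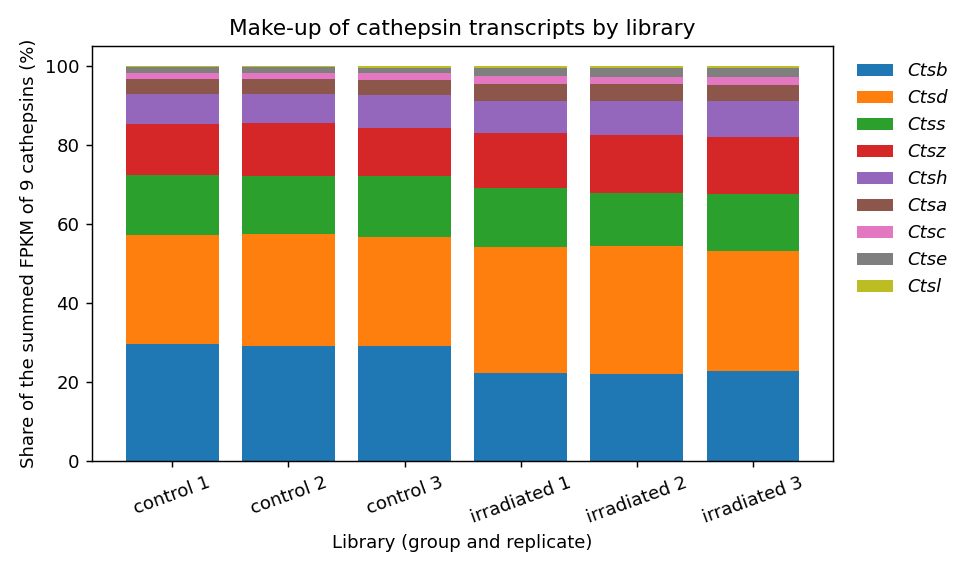
Share of each cathepsin in the summed FPKM of the 9 (percent, stacked to 100%) in each library. The lowest block, Ctsb, takes 29.2% to 29.7% in the 3 control libraries and 22.1% to 22.7% in the 3 irradiated libraries, while the Ctsd block above it is larger in the irradiated libraries.

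Other lysosomal proteases moved mostly the same way. Of 11 tested, 8 were lower and 1, Ctsg, was higher, with a median log2 change of -0.45. Ctsf and Dpp7, named after their values were seen, did not pass, and Dpp7 passed without irradiated replicate 1 (limma adjusted p = 0.042). Lgmn, the asparaginyl endopeptidase that processes several cathepsins to their mature forms, fell from 47.5 ± 3.95 to 17.9 ± 1.43 FPKM (log2 change -1.35 ± 0.09). Ctsk, the collagen-cutting cathepsin of osteoclasts, changed by -1.25 ± 0.15 at low levels (5.94 to 1.91 FPKM), and the carboxypeptidase Scpep1 by -0.60 ± 0.10. Both Lgmn and Ctsk thus had larger log2 changes than Ctsb, a difference that was not tested.

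Among inhibitors other than Cst3, 6 of 8 tested cystatin and stefin genes were higher and 0 lower. Stfa2 rose from 4.47 to 25.1 FPKM (log2 change 2.26 ± 0.12), Cstdc5 by 2.32 ± 0.19, Stfa1 by 1.72 ± 0.14 and Cstdc4 by 1.14 ± 0.10, all intracellular cysteine protease inhibitors and near-identical copies whose reads can be shared, so single values are uncertain. Cst7 (79.4 ± 9.18 and 82.3 ± 1.86 FPKM in control and irradiated libraries) and Cstb (52.9 ± 4.90 and 53.4 ± 8.85 FPKM), named after their values were seen, did not pass. The summed level of the list, at 212 to 234 FPKM in control and 363 to 399 FPKM in irradiated libraries, was below that of Cst3 in every library.

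Lysosomal genes outside the proteases were split. Of 37 tested hydrolases and their cofactors, 12 were lower and 0 higher, with a median of -0.10. Psap, the precursor of the saposins that help degrade sphingolipids, fell from 1210 ± 13.7 to 759.8 ± 12.8 FPKM (-0.67 ± 0.04), the acid lipase gene Lipa changed by -0.82 ± 0.07, the cholesterol carrier gene Npc2 by -0.66 ± 0.06 and the phospholipase gene Pla2g15 by -0.75 ± 0.09. Of 25 tested lysosomal membrane genes, 8 were lower and 2 higher (median 0.00). Cd68, a membrane glycoprotein gene of macrophages, changed by -0.80 ± 0.06, Laptm5 by -0.46 ± 0.05, Lamp1 by -0.39 ± 0.04 and Scarb2 by -0.58 ± 0.10. The 2 that were higher, named after their values were seen, were Cd63 (0.23 ± 0.05) and Tpcn2 (0.54 ± 0.14), and Tpcn2 lost its call in 4 of the 6 leave-one-out fits (without control replicate 1 or 2 or irradiated replicate 2 or 3, adjusted p up to 0.0831), as Cd63 did without the trend in the fit (limma adjusted p = 0.0923).

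The machinery that acidifies and supplies the lysosome held few genes that passed. Of 17 tested V-ATPase subunits, the proton pump, 0 were lower and 2 higher, Atp6v0a1 (0.61 ± 0.10) and Atp6v0b (0.19 ± 0.05), and Atp6v0b lost its call in 5 of the 6 leave-one-out fits (each but that without control replicate 3). Of 15 sorting genes 0 passed in either direction, with M6pr, a mannose 6-phosphate receptor, at -0.19 ± 0.06 (limma adjusted p = 0.0609, and 0.0221 without irradiated replicate 1). Of the TFEB family, which switches on lysosomal genes, 3 of 4 were tested and 0 passed. Tfeb stood at 6.93 ± 0.394 and 6.50 ± 0.628 FPKM, Tfe3 at 17.9 ± 0.482 and 17.99 ± 1.29 FPKM, and Tfec at 9.33 ± 0.801 and 9.14 ± 1.22 FPKM in control and irradiated libraries. A miss of the threshold does not show that these genes did not change.

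**Figure D4:**
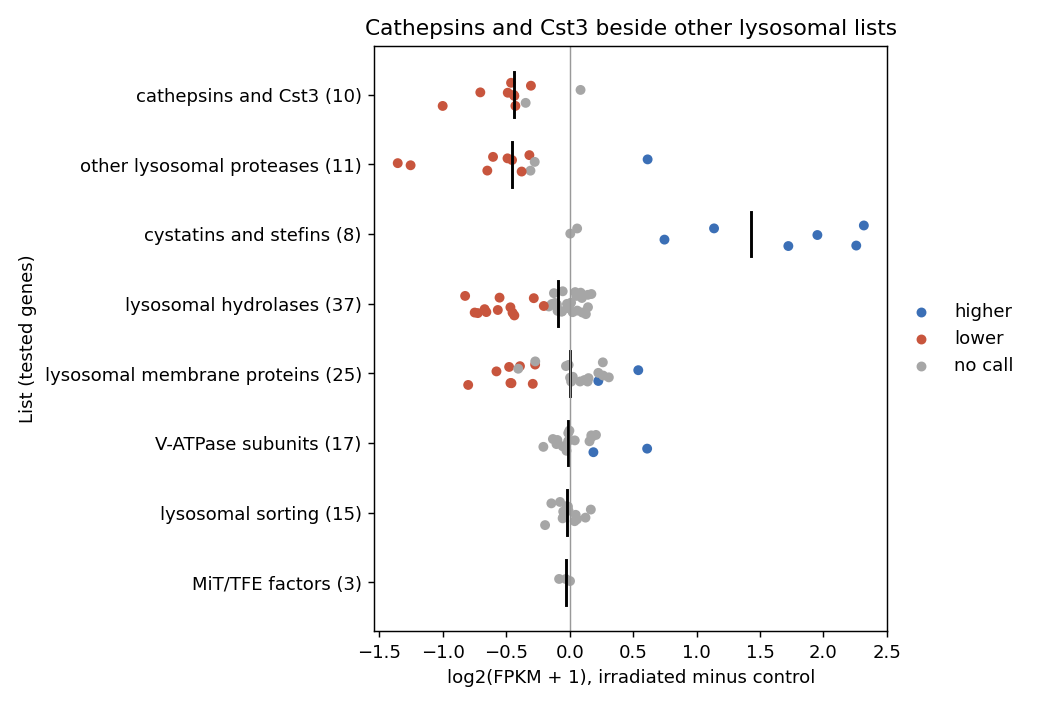
Log2(FPKM + 1) change (irradiated minus control) of each tested gene in the cathepsin set and 7 other lysosomal lists, with blue for higher, red for lower and grey for no call, and a black line at each list's median. The medians of the cathepsin set (-0.44) and of the other proteases (-0.45) lie below 0, that of the cystatin and stefin list (1.43) above it, and the pump, sorting and TFEB family lists near 0.

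Marker genes of the cells known for high cathepsin levels were lower in the same libraries. Of 16 tested macrophage markers 16 were lower (median log2 change -1.49), and the summed level of the 18 markers in the list was 942 to 972 FPKM in control and 364 to 380.5 FPKM in irradiated libraries. C1qb, a subunit of complement C1q, fell from 129.6 ± 4.28 to 38.1 ± 8.23 FPKM. Of 12 tested dendritic cell markers 10 were lower (median -0.98, summed level 689.6 to 724 and 322 to 333 FPKM), of 11 tested B cell markers 11 (median -1.24, 119.7 to 128 and 40.5 to 49.1 FPKM), and of 12 monocyte markers 10 (median -0.39, 7837 to 8450.3 and 6604 to 6652 FPKM), with 0 higher in any of these lists. Of 16 neutrophil markers 12 were higher and 0 lower (median 0.37), with a summed level of 69434 to 74551 FPKM in control and 101279 to 104214 FPKM in irradiated libraries. Of 13 eosinophil and basophil markers 5 were higher and 6 lower (median -0.28, 7563 to 8301 and 6893 to 7009 FPKM). T cell markers (12 of 12 lower, median -0.66, 484 to 508 and 289.6 to 301 FPKM) and Treg markers (7 of 8 lower, median -0.65, 189 to 193 and 111 to 121 FPKM) were lower too. When a library was left out, the T cell count was 10 to 11 and the Treg count 5 to 7. In each of these lists 0 markers were listed at 0 in all 3 libraries of a group. The part of these cell types in the cathepsin values was not tested.

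**Figure D5:**
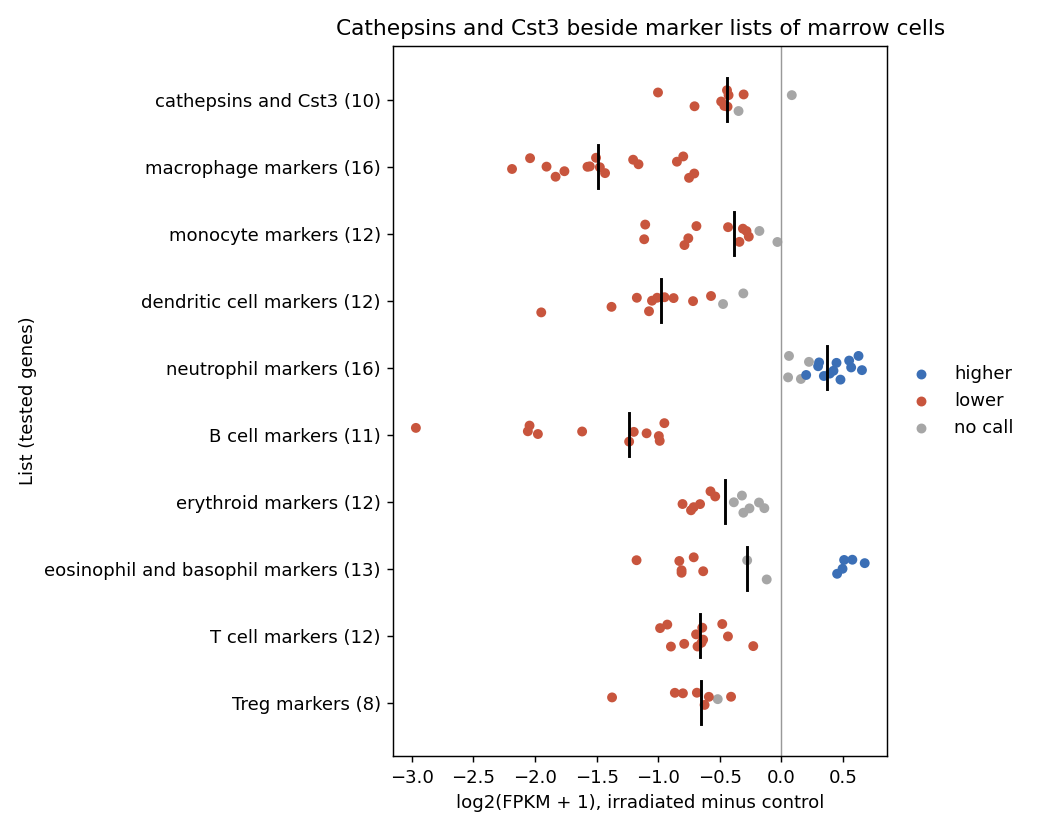
Log2(FPKM + 1) change (irradiated minus control) of each tested gene in the cathepsin set and 9 marker lists, coloured by call, with a black line at each list's median. The cathepsin median (-0.44) is nearest to those of the erythroid (-0.46) and monocyte (-0.39) markers. Macrophage markers have the lowest median of the 9 marker lists (-1.49) and neutrophil markers the highest (0.37), so every other list lies between them. Ctsb (-1.0) lies within the range of the macrophage markers (-2.19 to -0.71), and Ctss (-0.70) just above it. Both also lie within the ranges of the dendritic cell, monocyte, Treg, and eosinophil and basophil markers.

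Genes with the most similar profile were sought over the 6 libraries, which fall into the control and irradiated groups, so the likeness reflects mainly the difference between groups. For the summed cathepsin level the 5 highest Pearson's r, from 0.998 to 0.999 (n = 6 libraries), belonged to the chaperone gene Hspa8, the complement gene C1qa, the kinase gene Stk17b, the MHC class II gene H2-Aa and Frmd4a. Their own log2 changes were -0.44, -1.83, -0.40, -1.17 and -0.32, and that of Frmd4a did not pass. For Ctsd the 5 highest, from 0.994 to 0.998, belonged to Stip1, a co-chaperone gene, Ptms, Egr3, Epx, which encodes eosinophil peroxidase, and Ogfr.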

How the data were processed

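The submitters' processing notes name fastp, HISAT2 and StringTie, with GRCm38 and mm10 as builds. Versions, settings and annotation were not found in the labels. One value per gene was deposited for each library and is read here as FPKM, from its scale and StringTie's usual output. Libraries were stranded mRNA preparations, per the labels' protocols. A gene was tested where its mean was at least 1 FPKM (10666 of 15483 genes). The test was limma 3.58.1 (R 4.3.3, log2(FPKM + 1), eBayes with a trend, two-sided), checked on simulated data. The simulation drew independent normal noise, so it checked the code and not whether these values meet that assumption. Sums, shares and ratios were tested by exact permutation (scipy 1.17.1). Relative depth came from values under 0.1 FPKM. Gene coordinates are from GENCODE M21 on GRCm38. The genes, lists, motifs and tests were chosen with earlier results of these data known. Named were the 10 genes, the 4 of each lysosomal list with the lowest p, up to 3 of each marker list with the highest mean, Foxp3 and the 5 most similar genes by each measure. Alternatives changed the pseudocount, filter, scaling, trend or sum, added a replicate block, or left out 1 library.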

Additional observations from a re-analysis of the deposited data

How the results depend on the processing

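Of 140 values of the 10 genes under 14 alternatives, 138 kept their direction and their side of the threshold and 0 changed sign. A change of filter or trend or a replicate block leaves a gene's log2 change as it was. Those alternatives could therefore move only its p-value, not its sign. The exceptions were Ctsc without control replicate 2 (limma adjusted p = 0.0613) and Ctsl without the trend, which passed (limma adjusted p = 0.0455). The count of lower genes among the 10 was 7 to 8 in the fits that left out a library, and that of higher genes 0. Over all tested genes those fits gave 414 to 684 higher and 722 to 978 lower genes. Same-numbered libraries did not deviate together over all tested genes (r from -0.04 to 0.01). That check could miss a pairing that acts on few genes, so whether the numbers pair libraries is not known. With the replicate block 8 of the 10 genes were lower and 0 higher, and over all genes 558 were higher and 948 lower. The difference in the cathepsin sum was -690.5 to -613.5 FPKM when a library was left out and -819.7 FPKM with Cst3 in the sum. The difference in the share of Ctsb was -7.10 to -6.78 percentage points and -5.67 with Cst3 in the sum, and that of Ctsh turned to -0.0989 without Ctsb in the sum. The ratio of Cst3 differed by 0.0946 to 0.108, and by 0.0363 over all 9 cathepsins. Among genes without a call, Tfec turned to 0.00053 with median-of-ratios scaling and 0.016 with quantile normalization, and Cstb to -0.020 with array weights. When a library was left out, Tfec ran from -0.091 to 0.073, Tfe3 from -0.044 to 0.054, Cst7 from -0.037 to 0.124 and Cstb from -0.074 to 0.148. Higher V-ATPase genes numbered 4 with median-of-ratios scaling and 1 without a filter, without the trend and with the replicate block, and higher membrane genes 1 without a filter, without the trend and at a minimum mean of 5 FPKM, where 5 B cell markers were lower (fewer genes tested) and 1 sorting gene was lower. Without each library in turn, higher V-ATPase and membrane genes numbered 1 to 3 and lower sorting genes 0 to 1. Quantile normalization sets the top-ranked genes equal in all libraries, so S100a8 had a change of 0 there. Unless stated, the cause was not tested. The absolute depth is unknown, so counting error could not be computed for any gene.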
